A study of Homo sapiens with 6 samples.

Results

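Of 35130 short genomic regions in the authors' deposited table, 495 had lost most of their DNA methylation in DNMT3B knockout M07e cells by group mean. A region was taken when it held at least 5 measured CpG sites, its mean methylation level was under 20% in the knockout, and its mean was 50% or more in WT cells. The regions were thus chosen by the levels themselves, and the loss is a description with no test. Just inside the knockout bound stood LRRC14B at 20.0% (19.964 before rounding), FGF3 at 19.9% and SKOR1 at 19.9%, while regions of PTPRN2, FOXA1 and LOC105372692 at exactly 20% stood outside. At the WT bound, IGF2, LOC105376674 and LOC107986564 stood inside at exactly 50%, and MIR9-3HG, CACNA1G and LOC105373071 stood just outside at 49.979%, 49.974% and 49.977%.

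M07e is a human acute megakaryoblastic leukemia line that depends on GM-CSF and carries the CBFA2T3-GLIS2 fusion. Per the labels, 3 libraries came from cells with a DNMT3B knockout, made with CRISPR per the design text, and 3 from WT M07e cells. Both were grown in RPMI-1640 with 20% fetal bovine serum and 10 ng/mL GM-CSF. The sources used here do not state whether the knockout cells were 1 clone or whether libraries came from separate cultures. Reduced representation bisulfite sequencing (RRBS) was made from 500 ng of DNA cut with MspI, an enzyme that cuts at CCGG. It reads mostly CpG-rich sequence, in which a methylated cytosine stays a cytosine and an unmethylated one is read as thymine. Because the table gives only 1 mean per group and region, neither sequencing depth nor variation among the 3 libraries of a group is known, and no difference below was tested over libraries. The column taken as the knockout has a name that no label uses. It was read so because the knockout is the only other genotype, and every direction below rests on that reading.

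DNMT3B is a de novo DNA methyltransferase: with DNMT3A it places methyl groups on CpG sites that carry none, while DNMT1 copies the existing pattern after replication. CpG-rich gene starts are mostly free of methylation in normal cells, and many of them, above all those of developmental regulators, are methylated in leukemia cells. Inherited mutations of DNMT3B cause the ICF syndrome, an immune deficiency with loss of methylation at satellite repeats.

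The promoter table used here covers the chromosomes of 474 of the 495 regions. Of these, 52 overlapped a RefSeq promoter window (250 bases before to 50 after a gene start, GRCh38.p14, the same build as the table's hg38), at 42 protein-coding genes and 15 other symbols. In 22 of them the whole region lay inside the window and upstream of the start of a protein-coding gene. Regions at NFIB, ZNF529 and LRRK2 also lay wholly upstream but reached beyond the window, and are not among the 22. The 8 with the lowest knockout level are printed here to show what kind of sequence lost its methylation. Capitals mark the measured region and lower case up to 60 bases on each side, on the gene's own strand, 5′ to 3′, with sequence from RefSeq.
PRKAA2 (chr1:56645157-56645238, plus strand): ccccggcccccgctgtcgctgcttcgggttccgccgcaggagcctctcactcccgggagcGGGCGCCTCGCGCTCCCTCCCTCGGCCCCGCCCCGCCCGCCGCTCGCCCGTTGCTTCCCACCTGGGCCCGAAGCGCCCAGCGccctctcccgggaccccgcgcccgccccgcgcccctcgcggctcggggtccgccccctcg
CLDN11 (chr3:170418693-170418711, plus strand): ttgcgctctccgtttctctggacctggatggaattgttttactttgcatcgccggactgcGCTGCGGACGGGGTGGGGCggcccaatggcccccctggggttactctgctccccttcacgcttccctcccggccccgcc
SHOX (chrX:624150-624186, plus strand): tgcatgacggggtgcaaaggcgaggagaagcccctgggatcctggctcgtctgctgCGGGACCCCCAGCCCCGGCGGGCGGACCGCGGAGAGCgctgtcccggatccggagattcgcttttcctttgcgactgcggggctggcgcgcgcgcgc
EGR2 (chr10:62818839-62818877, minus strand): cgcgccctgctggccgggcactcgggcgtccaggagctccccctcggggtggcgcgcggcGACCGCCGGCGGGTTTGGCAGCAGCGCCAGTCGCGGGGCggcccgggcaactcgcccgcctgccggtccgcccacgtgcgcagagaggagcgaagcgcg
FMR1 (chrX:147911727-147911744, plus strand): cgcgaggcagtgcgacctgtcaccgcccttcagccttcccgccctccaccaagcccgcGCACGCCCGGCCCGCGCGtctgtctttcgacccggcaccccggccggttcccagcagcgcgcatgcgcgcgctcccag
CPEB1 (chr15:82647790-82647828, minus strand): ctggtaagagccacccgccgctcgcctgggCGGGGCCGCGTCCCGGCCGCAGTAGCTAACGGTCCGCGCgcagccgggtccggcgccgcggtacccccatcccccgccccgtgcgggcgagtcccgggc
HES5 (chr1:2530475-2530495, minus strand): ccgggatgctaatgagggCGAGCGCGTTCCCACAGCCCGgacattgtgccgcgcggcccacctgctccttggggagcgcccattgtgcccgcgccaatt
COL4A1 (chr13:110307161-110307172, minus strand): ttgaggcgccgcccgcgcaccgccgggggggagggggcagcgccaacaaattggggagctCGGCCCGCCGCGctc

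Both ends of each of these measured stretches are a C or a G of a CG. PRKAA2 encodes a catalytic subunit of AMP-activated protein kinase. Its region (positions -157 to -76, counted from the gene start) was at 0% in the knockout and 50.6% in WT cells over 14 sites. CLDN11, a claudin of the tight junctions of myelin, had a region at 0% in the knockout and 60.3% in WT cells over 6 sites (-175 to -157). SHOX, a homeobox gene of limb bone growth, was at 0.549% in the knockout and 61.5% in WT cells (13 sites, -194 to -158). Of the 4 SHOX regions at 50% or more in WT cells, 2 kept 50% or more in the knockout.

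EGR2, a zinc finger factor of hindbrain patterning and myelination, was at 0.773% in the knockout and 63.5% in WT cells over 14 sites (-102 to -64). At FMR1, whose promoter is silenced by methylation in fragile X syndrome, 7 sites between -192 and -175 were at 1.89% in the knockout and 57.3% in WT cells. The same bases lie inside FMR1-AS1, which runs the other way. CPEB1, which binds the cytoplasmic polyadenylation element of mRNAs, was at 2.43% in the knockout and 62.4% in WT cells over 16 sites. These lie at -220 to -182 of CPEB1 and 20 to 58 bases past the start of CPEB1-AS1. Of the 2 CPEB1 regions at 50% or more in WT cells, the other kept 50% or more in the knockout.

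HES5, a Notch target and transcriptional repressor, was at 5.95% in the knockout and 62.2% in WT cells over 8 sites. COL4A1 and COL4A2, which encode the paired chains of basement membrane collagen, run in opposite directions from a shared promoter. The 8 sites printed lie at -15 to -4 of COL4A1 and -123 to -112 of COL4A2, and were at 7.74% in the knockout and 51.2% in WT cells. The other 14 of these 22 regions were between 11.5% (SVIL, the actin-binding supervillin) and 19.02% (PTPRZ1, a receptor-type phosphatase of glia) in the knockout. In WT cells those 14 lay between 50.3% (TRAF1, a TNF receptor adaptor) and 91.9% (ACSL6, an acyl-CoA synthetase).

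**Figure D1:**
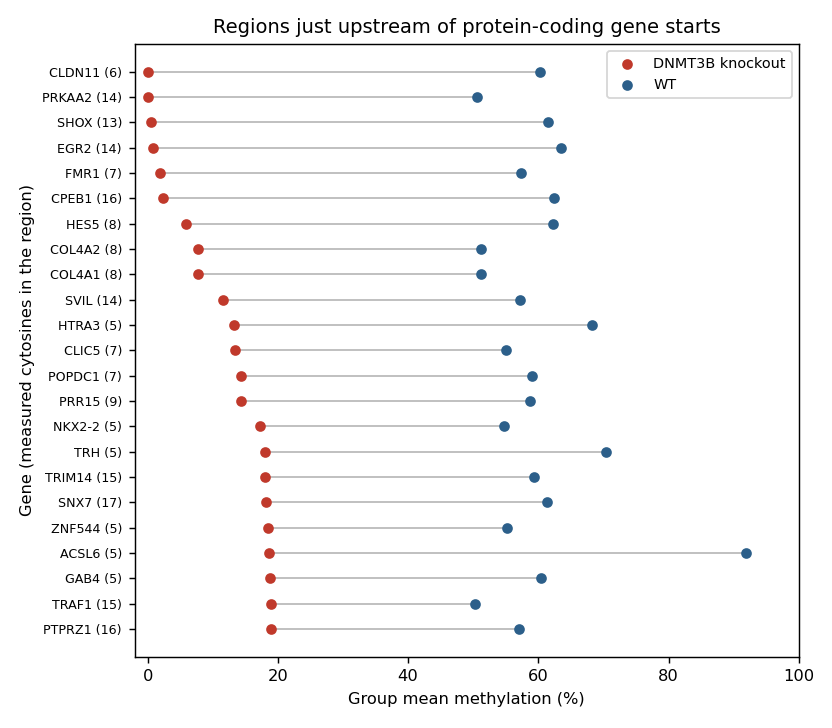
Group mean methylation (x axis, percent) of the 22 regions inside a promoter window and wholly upstream of a protein-coding gene start, 1 row per gene with the number of measured sites in brackets. Red points are the DNMT3B knockout mean, blue points the WT mean; COL4A1 and COL4A2 share 1 region. The rows run down from CLDN11 and PRKAA2 at 0% in the knockout to PTPRZ1 at 19.02%, and ACSL6 has the highest WT mean at 91.9%.

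The 60 promoter windows that held one of the 495 regions were rich in G and C: the median G+C content was 72.5%, the median observed over expected CpG 0.824, and the median number of CG dinucleotides 32. Windows with a region methylated at 50% or more in WT cells had medians of 70.8%, 0.820 and 30. Over all 34943 windows the medians were 58.7%, 0.577 and 14, but RRBS reads only CpG-rich DNA. Motifs were searched on both strands, and the fitting background is the windows with a region of at least 5 sites, since RRBS reads few others. GGGCGG was present in 83.3% of the 60 windows, in 76.4% of those with a region methylated in WT cells and in 76.8% of those with a measured region. CCGG, the MspI site, was in 100% of the 60 and 99.98% of the measured windows. CACGTG was in 6.67% of the 60 and 9.62% of the measured windows, and TGACGTCA in 0% of the 60 and 2.38%. AGATAA was in 3.33% of the 60 and 3.2% of the measured windows, and the palindromic NRF1 motif in 1.67% of the 60 and 1.62%. CCGGAAGT, which begins with the MspI site, was in 3.33% of the 60 and 7.49% of the measured windows. Over all windows, measured or not, the shares were 44.9% for GGGCGG, 63.1% for CCGG, 7.23% for CACGTG, 1.84% for TGACGTCA, 10.4% for AGATAA, 1.23% for the NRF1 motif and 4.11% for CCGGAAGT. A match describes the letters only and is not a binding site. In the 34 regions that lie wholly inside such windows, 47.2% of 377 CpG cytosines were followed by G or A after the CG, against 43.4% of 731 in 84 regions that kept their methylation and 46.8% of 26367 over all measured regions in windows.

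Across the table, 34885 regions had at least 5 sites, and 3800 of these (10.9%) were at 50% or more in WT cells. The 34885 had medians of 31.0% in the knockout and 7.5% in WT cells. Their median difference, knockout minus WT, was 17.8 points. While 495 met the bounds of loss, 1204 ran the other way, under 20% in WT cells and at 50% or more in the knockout. The 495 were 13.0% of the 3800 (Clopper-Pearson 95% interval over regions 12 to 14.1). Another 1587 (41.8%) lay between 20% and 50% in the knockout, and 1718 (45.2%) kept 50% or more. The interval counts regions only and not the spread between libraries. The median of the 495 was 12.4% in the knockout (quartiles 3.93 and 16.3) and 57.9% in WT cells (quartiles 53.3 and 64.0). The difference, knockout minus WT, ran between -91.8 and -30.5 points with a median of -48.2.

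**Figure D2:**
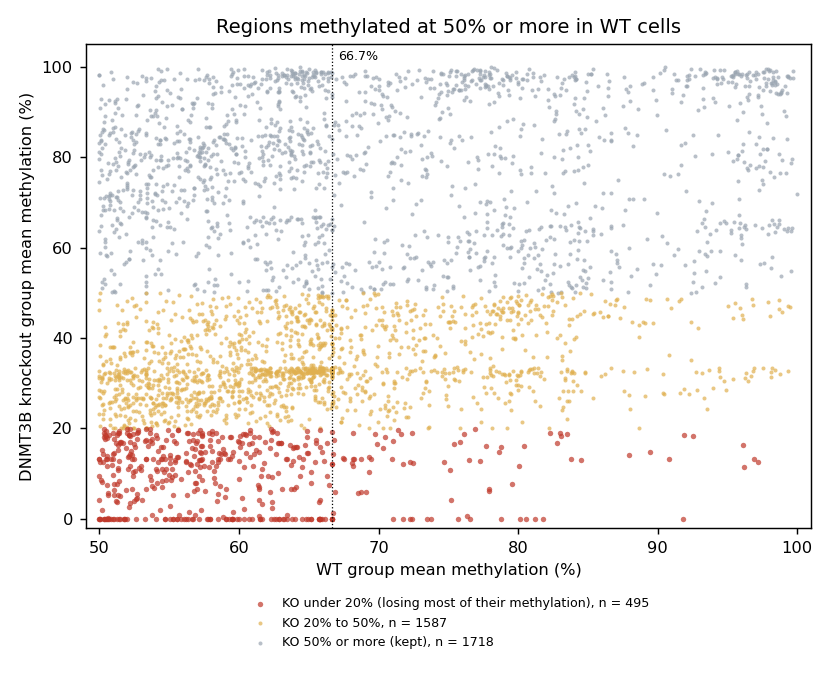
Mean methylation in the DNMT3B knockout (y axis, percent) against WT cells (x axis, percent) for the 3800 regions with at least 5 sites and a WT mean of 50% or more. The 495 regions under 20% in the knockout are red; most of them (417) lie at or left of the dotted line at 66.7% in WT cells, and 99 of them sit at exactly 0% in the knockout.

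The higher a region stood in WT cells, the smaller was the share under 20% in the knockout. It was 22.2% (292 of 1317) for WT means of 50% to 60%, 12.2% (145 of 1192) for 60% to 70% and 5.80% (35 of 603) for 70% to 80%. It was 3.91% (15 of 384) for 80% to 90% and 2.63% (8 of 304) for 90% to 100%. Of the 495, 84.2% had a WT mean at or under 66.7%, as did 65.8% of the regions between 20% and 50% in the knockout and 49.3% of those that kept 50% or more. The 8 regions above 90% in WT cells therefore stand apart from the typical one, which was only partly methylated in WT cells by its mean.

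The share also differed with the number of sites. Of regions at 50% or more in WT cells, 10.5% (184 of 1753) of those with exactly 5 sites were under 20% in the knockout, against 12.9% (175 of 1358) with 6 to 9, 16.5% (74 of 448) with 10 to 14 and 25.7% (62 of 241) with 15 or more. A site is a cytosine of a CpG counted on each strand: in 1894 of 2496 regions inside promoter windows the number of sites was above the number of CG dinucleotides, and in none was it above the CpG cytosines of both strands. The 495 had a median of 7 sites (quartiles 5 and 10) over 46 bases (quartiles 28 and 86.5).

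The regions with the most sites lay at LRRFIP1, LRRN1, RNF157, AJAP1 and EXT1 among others. LRRFIP1, a regulator of transcription and innate sensing, had 34 sites across its start at 18.1% in the knockout and 50.3% in WT cells (chr2:237627556-237627794). A region of 33 sites shared by LRRN1, a neuronal leucine-rich repeat protein, and LOC100130207 was at 13.9% in the knockout and 50.5% in WT cells. RNF157, a ubiquitin ligase, had 31 sites at 18.1% in the knockout and 58.8% in WT cells.

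AJAP1, an adherens junction protein, had 31 sites at 14.9% in the knockout and 54.2% in WT cells. EXT1, which builds heparan sulfate chains, had 26 sites at 18.4% in the knockout and 50.4% in WT cells, 223 bases outside the gene. DUSP4, a phosphatase of MAP kinases, had 23 sites at 11.6% in the knockout and 58.4% in WT cells. Of the 12 regions with the most sites, 10 stood between 50% and 60% in WT cells, while SLC6A20 (23 sites) stood at 76.4% and KCNA3 (21 sites) at 64.1%. None of the 12 was at 0% in the knockout.

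In 99 of the 495 regions (20.0%) the knockout mean was exactly 0%, and in 292 (59.0%) it was 10% or more. Only 8 were above 0% and under 1%. Of the 396 regions above 0% in the knockout, 87 (22.0%) had the mean that would arise if every site in every library were at either 0% or 100%, within a relative tolerance of 6e-05. Among regions that kept 50% or more the same held for 32 of 1718 (1.86%). The commonest such value was 13.3%, which in a region of 5 sites equals 2 of 15 points at 100%. It was the knockout mean of 27 regions, most but not all of them with 5 sites. KIFC2 has 10 sites, and KLHL29 has 12, for which 13.3% is not such a value.

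**Figure D3:**
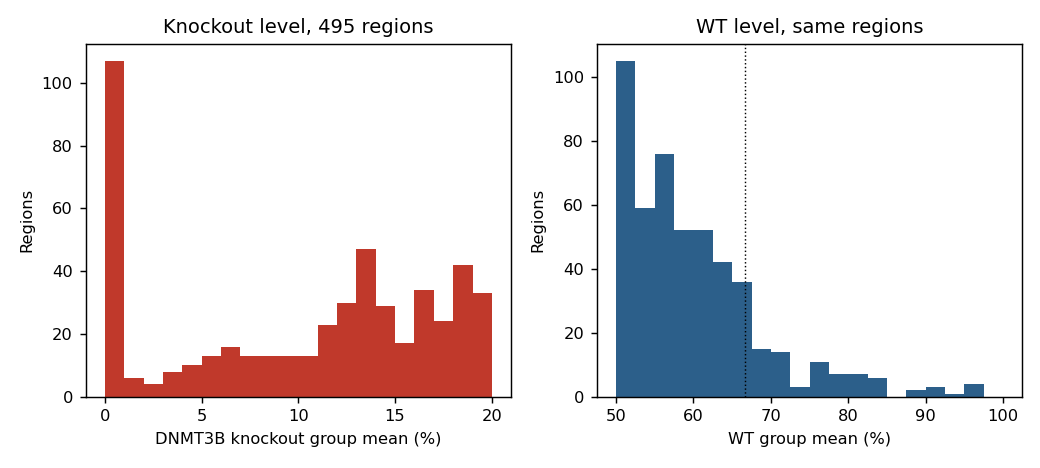
Number of regions (y axis) by DNMT3B knockout mean (left, bins of 1 point) and by WT mean (right, bins of 2.5 points) for the 495 regions. The knockout means pile up at 0% and again near 13.3%, and the WT means lie mostly at or left of the dotted line at 66.7%.

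For regions at 0% in the knockout, the authors' Mann-Whitney p allows a count of how many WT points were above 0. The p-values fit a normal approximation over all sites of the 3 libraries as separate points, with no correction for ties. With every knockout point at 0, such a p depends only on the number of WT points above 0. That number could be read back for 98 of the 99 regions, within a relative tolerance of 0.006 on p. In 41 of the 98, exactly as many WT points were above 0 as 2 libraries would give if all their sites were above 0 and all sites of the remaining library were at 0. In 35 there were fewer and in 22 more. Over the 98 regions, the WT points above 0 had a median level of 94.3% (quartiles 87.5 and 98.0).

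The partial WT means of these regions were thus mostly a mixture of high points and points at 0. POU3F1, a POU homeobox factor, had 20 of 30 WT points above 0; its mean was 0% in the knockout and 63.8% in WT cells, and the points above 0 averaged 95.7%. CLDN11 had 12 of 18 WT points above 0, averaging 90.5%. At PRKAA2 27 of 42 WT points were above 0, averaging 78.6%, although its sites are assigned to the overlapping LOC101929935. Whether a point at 0 was an unmethylated site or a site with no reads in that library is not recorded in the table and was not tested. The same holds for the 0% of the knockout.

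In 1 region every WT point was above 0. PRKCZ, an atypical protein kinase C, had 15 of 15 WT points above 0 and stood at 0% in the knockout and 91.8% in WT cells, inside the gene (chr1:2160791-2160854). EMX2OS, the antisense RNA of the homeobox gene EMX2, had 20 of 21 WT points above 0 and stood at 0% in the knockout and 78.8% in WT cells. LOC124905155 had 31 of 33, at 0% in the knockout and 81.2% in WT cells. WNT3A, a WNT ligand, had 20 of 24, at 0% in the knockout and 55.8% in WT cells, with WT points above 0 averaging only 67.0%. For these 4 regions the WT level cannot come from 2 libraries alone, since more points than 2 libraries hold were above 0.

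Of the 10 largest losses within 50000 bases of a protein-coding gene, 6 were at 0% in the knockout: PRKCZ, F11, LOC124905155, MYO10, PTPRN2 and EMX2OS. The other 4 were above 0% there. PDPN stood at 11.4% in the knockout and 96.1% in WT cells, PDGFA at 12.5% in the knockout and 97.2% in WT cells, and SPTBN4 at 16.4% in the knockout and 96.1% in WT cells. A region near JAKMIP2-AS1 stood at 13.3% in the knockout and 96.9% in WT cells.

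The same bound of 50% gave a similar pattern the other way. Of 309 regions read out that were at 0% in WT cells and at 50% or more in the knockout, 126 had exactly as many knockout points above 0 as 2 libraries hold, 133 fewer and 50 more. A mean of 50% or more cannot come from the points of 1 library, so the bound leaves that case out. Without the bound, 1602 regions at 0% in the knockout and above 0% in WT cells were read out. Of these, 940 had as many WT points above 0 as 1 library holds, and 57 as many as 2 hold. Of 9127 regions at 0% in WT cells and above 0% in the knockout, the counts were 7577 and 132.

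**Figure D4:**
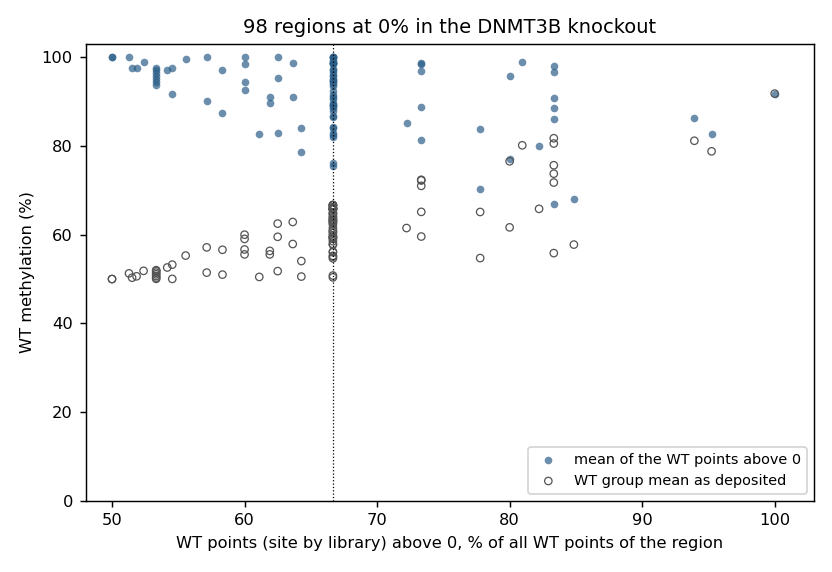
WT methylation (y axis, percent) against the share of WT points (each site in each library) above 0 (x axis, percent) for 98 regions at 0% in the DNMT3B knockout. Filled blue points give the mean of the WT points above 0 and open circles the deposited WT mean; 41 regions lie on the dotted line at 66.7%, and PRKCZ is at 100% on the x axis.

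The authors' own significance calls left out the regions at 0%. With q under 0.01 and a loss of at least 25 points in the authors' deposited table, 2.17% of all 35130 regions were called lower in the knockout (762 regions), and 225 of the 495 (45.5%) were among them. With q under 0.05 the calls were 61.6% of the 495 and 3.41% of all, and with the Kolmogorov-Smirnov p adjusted by Benjamini-Hochberg over the table and under 0.01 they were 32.5% and 1.32%. The rule used the same contrast, so nothing is read from these shares. None of the 99 regions at 0% in the knockout was called, against 225 of the 396 above 0% (56.8%). All 99 have a Kolmogorov-Smirnov p and a q of 1 in the authors' deposited table, while their Mann-Whitney p there lies between 2.04e-12 and 0.0121. By number of sites, 28.8% of the regions with 5 sites were called, 40% of those with 6 to 9 and 75% of those with 10 or more.

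By position, gene starts were a larger share of the 495 regions than of regions that kept their methylation at WT means under 70%, but not above. The intervals overlap at each level. A gene start here is within 1000 bases of a RefSeq start, and chromosome 8, for which the promoter table used here has no starts, is left out. Of 474 regions 142 (30.0%, interval 25.9 to 34.3) lay at a gene start, 220 (46.4%) inside a gene and 112 (23.6%) between genes. Regions that kept 50% or more were at gene starts in 21.6% (19.6 to 23.7), inside genes in 55.0% and between genes in 23.4%. Over all regions with at least 5 sites 31.8% were at gene starts, and among those under 20% in WT cells and at 50% or more in the knockout 24.8%. Within 250 bases of a start lay 16.7% of the 474 (13.4 to 20.3) and 9.95% of the kept regions (8.54 to 11.5).

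Seen per class, 16.3% (142 of 873, 13.9 to 18.9) of the gene-start regions at 50% or more in WT cells were under 20% in the knockout, 11.5% (220 of 1916, 10.1 to 13.0) of those inside genes and 13.0% (112 of 862) of those between genes. At WT means of 50% to 60%, 31.2% (25.8 to 37.0) of the regions under 20% in the knockout were at gene starts and 22.7% (18.9 to 26.8) of the kept ones. At 60% to 70% the shares were 34.1% (26.2 to 42.6) and 24.7% (20.7 to 29.1). At 70% or more the order was turned, with 14.0% (6.26 to 25.8) against 19.2% (16.4 to 22.1). Within each of these levels the intervals overlap. With a knockout mean under 10% in place of 20% the share was 24.9% (19.003 to 31.5), which overlaps that of the kept regions. CpG density was alike in the 495 and the kept regions, with medians of 17.4 and 17.2 sites per 100 bases, against 12.6 over all regions with at least 5 sites. By chromosome, the share of methylated regions under 20% in the knockout lay between 19.9% (chromosome 6, 13.7 to 27.3) and 7.96% (X, 3.71 to 14.6), and these intervals overlap.

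Few neighbouring regions within 1000 bases met the same bounds, as over the whole table, where 495 of 34885 regions with at least 5 sites (1.42%) did. Of the 495 regions, 161 had another region of the table within 1000 bases. These neighbours numbered 223, of which 216 had at least 5 sites. Only 24 of the 216 were at 50% or more in WT cells: 4 were themselves among the 495, 13 were between 20% and 50% in the knockout, and 7 kept 50% or more. Regions outside these 161 had no neighbour at this distance, so the width of their loss was not measured. The 4 form pairs at PTPRS and DNER. At PTPRS, a receptor-type tyrosine phosphatase of neurons, abutting stretches were at 13.3% in the knockout and 67.5% in WT cells, and at 8.39% in the knockout and 51.4% in WT cells. At DNER, a transmembrane Notch ligand of neurons, stretches 18 bases apart were at 18.9% in the knockout and 60.8% in WT cells, and at 16.2% in the knockout and 80.4% in WT cells.

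The 7 kept neighbours stood at other levels than the regions beside them. The sources used here do not state how the ends of regions were set. Whether they were set where levels change was not tested, so nothing is read from the short distances. At NKX2-8, a homeobox factor, 14 sites were at 3.61% in the knockout and 52.2% in WT cells, while 5 sites 9 bases away were at 97.5% in the knockout and 94.3% in WT cells. A second NKX2-8 region was at 14.6% in the knockout and 51.0% in WT cells, with 8 sites 17 bases away at 79.9% in the knockout and 61.5% in WT cells. ADO, a thiol dioxygenase, had 7 sites at 19.05% in the knockout and 51.0% in WT cells abutting 7 sites at 99.1% in the knockout and 77.6% in WT cells.

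The remaining 4 were at CERKL, SLC6A20, C6orf132 and the protocadherin gamma cluster. At CERKL, a ceramide kinase-like gene of the retina, the region was at 6.11% in the knockout and 56.8% in WT cells and its neighbour, 28 bases away, at 84.7% in the knockout and 61.7% in WT cells. At SLC6A20, an imino acid transporter, 23 sites were at 13.0% in the knockout and 76.4% in WT cells, and the neighbour 64 bases away was at 55.1% in the knockout and 68.3% in WT cells. C6orf132 had 16.7% in the knockout and 53.8% in WT cells, with a neighbour 3 bases away at 63.0% in the knockout and 78.9% in WT cells. In the protocadherin gamma cluster the region was at 13.3% in the knockout and 63.3% in WT cells, and the neighbour 574 bases away at 79.2% in the knockout and 97.7% in WT cells.

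Of the neighbours within 1000 bases that were methylated in WT cells, 16.7% (4 of 24, 4.74 to 37.4) were under 20% in the knockout. Over all regions methylated in WT cells the share was 13.0%. It was 5.07% (7 of 138, 2.06 to 10.2) around regions that kept their methylation. Around regions between 20% and 50% in the knockout it was 11.2% (13 of 116, 6.10 to 18.4). Around regions under 20% in WT cells and at 50% or more in the knockout it was 17.2% (10 of 58, 8.59 to 29.4). Each of these intervals overlaps that of the 495. Within 5000 bases the shares were 22.0% (20 of 91, 14.0 to 31.9) around the 495 and 9.06% (27 of 298, 6.06 to 12.9) around kept regions. Around the other sets they were 13.9% (39 of 281) and 12.4% (19 of 153), in the same order. At 5000 bases the intervals of the 495 and of the kept regions do not overlap. Within 10000 bases they do, at 19.7% (29 of 147, 13.6 to 27.1) and 12.1% (50 of 413, 9.12 to 15.6). Neighbours can be counted beside several regions of a set and share their DNA fragments, so these intervals are a description.

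Most neighbours were low in WT cells, and these were higher in the knockout by their medians. The same direction held over all regions with at least 5 sites, with medians of 31.0% in the knockout and 7.5% in WT cells. The 118 neighbours under 20% in WT cells had medians of 30.0% in the knockout and 2.97% in WT cells, and 10 of them were at 50% or more in the knockout. The 74 between 20% and 50% in WT cells had medians of 23.2% in the knockout and 31.9% in WT cells. One of the 10 lay 18 bases from a lost region of CNTFR, the ciliary neurotrophic factor receptor: it was at 50.2% in the knockout and 6.52% in WT cells, while the lost region was at 7.62% in the knockout and 79.5% in WT cells. Another lay 56 bases from a lost region of the collagen gene COL6A1 (19.2% in the knockout, 66.7% in WT cells) and was at 64.2% in the knockout and 18.5% in WT cells. Regions that kept their methylation had similar neighbours: those under 20% in WT cells had medians of 32.4% in the knockout and 2.07% in WT cells.

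**Figure D5:**
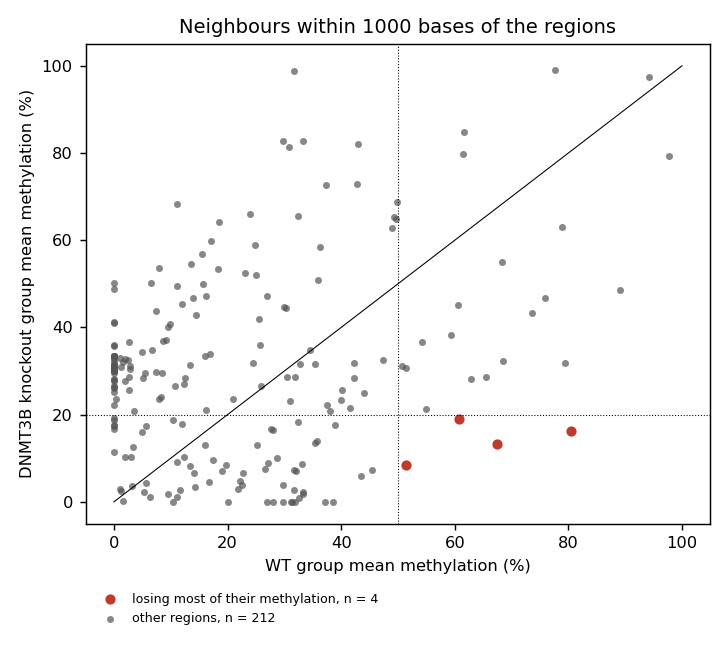
Mean methylation in the DNMT3B knockout (y axis, percent) against WT cells (x axis, percent) of 216 regions with at least 5 sites within 1000 bases of one of the 495. Red points are the 4 that are themselves among the 495, dotted lines mark the bounds of 20% and 50%, and the solid line marks equal levels; 7 regions lie at or above 50% in both groups.

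By gene, 489 of the 495 regions were assigned to 532 genes (382 protein-coding) that they overlap or that lie within 50000 bases. A region in overlapping genes counts for each. PTPRN2, a phosphatase-like receptor of secretory granules, had the most with 5 regions, but it also has 78 regions with at least 5 sites, of which 18 were at 50% or more in WT cells and 6 kept that level. NKX2-2, a homeobox factor of the ventral neural tube and pancreas, had 3 of its 3 methylated regions among the 495: at 17.3% in the knockout and 54.8% in WT cells, at 9.52% in the knockout and 57.1% in WT cells, and at 19.6% in the knockout and 71.4% in WT cells. HES5, CRTAC1, DNER, HOXA3, ATP2C2 and COL6A1 each had 2 of 2. IRX3 had 2 of 3, KAZN and SHOX 2 of 4 and LOC101927263 2 of 5. These counts leave out regions under 50% in WT cells. Over all regions with at least 5 sites, HOXA3 had medians of 32.7% in the knockout and 0% in WT cells. COL6A1 had 30.6% and 0.370%, ATP2C2 29.0% and 23.0%, and NKX2-2 20% and 16.8%, in the same order. At HES5, CRTAC1 and DNER the median was lower in the knockout.

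Gene families were compared by the share of their WT-methylated regions that fell under 20% in the knockout, beside 13.0% over all regions. Homeobox genes, which specify position and cell identity, had 29 of 150 (19.3%, interval 13.3 to 26.6) at 22 genes, and 64 of the 150 kept 50% or more. The symbol pattern as first written also took POU2AF1, which has no homeobox, and gave 30 of 151 (19.9%). VAX2, a homeobox factor of the eye, had 19 sites at 0.522% in the knockout and 58.9% in WT cells, and 10 more at 4.36% in the knockout and 52.6% in WT cells. HOXB7 was at 1.59% in the knockout and 59.6% in WT cells, and IRX3 had regions at 14.5% in the knockout and 64.8% in WT cells and at 13.3% in the knockout and 71.0% in WT cells.

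The other transcription factor families held few regions methylated in WT cells, apart from zinc finger genes. Zinc finger genes had 14 of 117 (12%), bHLH and GATA factors 3 of 26 (11.5%), forkhead factors 3 of 20 (15%) and SOX and T-box factors 1 of 18 (5.56%, interval 0.141 to 27.3). FOXA3, a liver forkhead factor, had 19 sites just past its start at 14.7% in the knockout and 57.6% in WT cells. FOXL1, a forkhead factor of gut mesenchyme, was at 18.7% in the knockout and 76.1% in WT cells. EBF3, a neuronal factor of the early B cell factor family, had 22 sites at 1.52% in the knockout and 56.4% in WT cells. Of the 3 EBF3 regions methylated in WT cells, the other 2 kept 50% or more. NFIB, of the nuclear factor I family, had 24 sites upstream of its start at 8.28% in the knockout and 54.5% in WT cells.

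Ligands and receptors followed. Growth factors and morphogens had 10 of 79 (12.7%) and receptors 23 of 144 (16.0%, interval 10.4 to 23.0). RET, the receptor tyrosine kinase for GDNF-family ligands, was at 0% in the knockout and 72.4% in WT cells, with 11 of 15 WT points above 0. RXRA, the retinoid X receptor, was at 18.8% in the knockout and 83.5% in WT cells. IGF2, an imprinted growth factor, was at 0% in the knockout and 50% in WT cells over 8 sites. Of its 24 WT points 12 were above 0, averaging 100%, so its sites were not read as partly methylated.

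Adhesion and matrix genes had 28 of 145 (19.3%, interval 13.2 to 26.7), but 20 of the 43 genes counted are protocadherin gamma genes whose spans overlap and share regions. ADAMTS2, which trims procollagen, had 2 of 6: at 0% in the knockout and 53.2% in WT cells, and at 9.21% in the knockout and 62.4% in WT cells. Cytoskeleton and GTPase genes had 20 of 129 (15.5%), kinases and phosphatases 8 of 71 (11.3%), ion channels 10 of 92 (10.9%) and transporters 9 of 82 (11.0%). MYO10, a myosin of filopodia, was at 0% in the knockout and 80.6% in WT cells with 15 of 18 WT points above 0. KCNA3, a potassium channel of lymphocytes, had 21 sites at 15.8% in the knockout and 64.1% in WT cells. ITPR3, an inositol trisphosphate receptor, had 17 sites just past its start at 14.9% in the knockout and 65.9% in WT cells. The intervals of all these families include 13.0%, except those of the homeobox and the adhesion and matrix genes, whose lower ends of 13.3 and 13.2 lie just above it; regions of one gene are not independent.

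The lists of blood cell genes were short, and their intervals are wide. The erythroid list had 0 of 6 regions methylated in WT cells (interval 0 to 45.9%) and the lymphoid list 0 of 9 (0 to 33.6%). Stem and progenitor genes had 4 of 11 (36.4%, 10.9 to 69.2), at HOXA9, PRDM16 and MECOM. MECOM, which encodes the leukemia-associated factor EVI1, was at 16% in the knockout and 60.1% in WT cells over 5 sites. PRDM16, its close relative, had regions at 14.9% in the knockout and 59.6% in WT cells and at 14.9% in the knockout and 52.3% in WT cells.

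The megakaryocyte and platelet list had 2 of 9 (22.2%, 2.81 to 60.01), both at PDGFA, the second of which lay near the gene's start at 9.52% in the knockout and 62.1% in WT cells. The granulocyte and monocyte list had 1 of 2 (50%, 1.26 to 98.7), 5652 bases from IRF8, a factor of monocyte and dendritic cell fate, at 11.1% in the knockout and 55.2% in WT cells. The CBFA2T3-GLIS2 signature had 4 of 10 (40%, 12.2 to 73.8), at PDPN, PDGFA and HPSE2, and another 4 of the 10 kept 50% or more. Both PDGFA regions of the megakaryocyte list are counted here again. Tumor suppressors often methylated in leukemia had 2 of 13 (15.4%, 1.92 to 45.4). Imprinted genes had 1 of 3, germline genes 1 of 5, DNA methylation machinery genes 0 of 3, and housekeeping genes no region methylated in WT cells. F11, which encodes coagulation factor XI, was at 0% in the knockout and 81.7% in WT cells with 15 of 18 WT points above 0. None of the 495 regions was assigned to DNMT3B, CBFA2T3, GLIS2, GATA1, ERG, RUNX1 or KIT. CBFA2T3 has 3 regions methylated in WT cells, of 24 with at least 5 sites. The other genes have none, but few of their regions were measured. With at least 5 sites, DNMT3B and RUNX1 have 3 regions each, GLIS2 5, ERG 2 and KIT 1. GATA1 has no such region, so it could not be among the 495.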

How the data were processed

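RRBS was measured in 3 DNMT3B knockout and 3 WT M07e libraries. Per the submitters' processing notes the genome build was hg38 and the tools included Bismark, methylKit, HISAT2, Trimmomatic and FastQC; versions and roles are not stated. The authors deposited 1 table of 35130 regions with methylation in percent, 1 mean per group. Per the file headers it also holds the mean difference in points, the number of CpG sites, a Mann-Whitney and a 2-dimensional Kolmogorov-Smirnov p-value and a q-value. The sources used here do not state how the authors joined sites into regions or treated sites without reads. Coverage was not analysed here: the depth is unknown and a precision from reads cannot be given. The authors' p-values count sites as points and do not measure the spread between libraries.

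Regions were filtered as stated in the text with pandas 2.3.3 and SciPy 1.17.1. In all 2496 regions inside a RefSeq promoter window, coordinates began at a C or G of a CG after a shift from the table's own count. The end was moved up by 1 base and the start by 1 base more, and the shifted coordinates are printed, 1-based. The deposited difference departed from knockout minus WT by over 0.01 points in 0 of 495 regions. Intervals are Clopper-Pearson (95%) over regions. The reading of points, neighbours and 0-or-100 means was tested on simulated data. For points, the simulated p-values were made with the same formula that the reading inverts. That test checks the computation only and cannot show how the authors' p-values were made.

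The regions and lists were chosen with earlier results of these data known. Named genes are the 12 regions with the most sites, the 10 largest losses within 50000 bases of a protein-coding gene (1 per gene), genes with several regions, promoter regions, up to 3 per family, neighbouring pairs and those at the bounds. VAX2, HOXB7, RXRA, CNTFR, COL6A1 near its gain, ACSL6, the kept neighbours and the 8 printed sequences were named after their values were seen. The homeobox pattern was narrowed after POU2AF1 was seen among its genes. Alternatives changed the bounds, the site minimum, the distances and the q.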

Additional observations from a re-analysis of the deposited data

How the results depend on the processing

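The bounds set the counts by construction. With at least 10 sites 136 regions were found (19.7% of regions methylated in WT cells; 40.2% at gene starts; 21.4 sites per 100 bases; 75% called by the authors' q). With a WT mean of 60% or more 203 were found (8.18%), and with 70% or more 58 (4.49%; 14.0% at gene starts; 22.5 sites per 100 bases; 74.1% called). With a WT mean above 66.7%, chosen after seeing the data, the values were 78, 5.23%, 18.2%, 21.4 and 74.4%. A knockout mean under 10% left 203 (5.34%; 24.9% at gene starts; 36.0% called), and one under 25% gave a share of 17.2%. Without the regions at exactly 0% in the knockout the share was 10.4%. Gene starts within 500 and 2000 bases took 22.6% and 36.7%. With q under 0.05 61.6% were called (3.41% of all regions), and with Benjamini-Hochberg adjustment of the Kolmogorov-Smirnov p 32.5% (1.32% of all). The other 14 values stayed within their interval, or a count within 1.5 times; they include a minimum of 3 sites, autosomes only, protein-coding genes only and wider gaps to neighbours.

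No paired analysis was possible because the table holds 1 mean per group, and for the same reason leaving out each library was not run. The depth behind a mean is unknown, so a 0% has no upper limit here.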
